A study of Mus musculus with 58 samples.

Results

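The genes described here are 9 endothelial and pericyte genes followed for the inner blood-retina barrier. Their levels were read from whole retinas of control and diabetic mice at 6 times of day. All 9 genes were chosen by symbol and found among the 52459 symbols of the count table. Of these, 7 are endothelial genes (Cldn5, Ocln, Cdh5, Pecam1, Mfsd2a, Plvap, Abcb1a) and 2 mark pericytes (Pdgfrb, Rgs5). The diabetic mice were male Ins2Akita heterozygotes with hyperglycemia, born of Ins2Akita heterozygous males and C57Bl6 females, and the controls were their wild type male littermates, all killed at 4 months of age under 12 h of light and 12 h of dark. The mutation lies in an insulin gene of the whole animal, so the retina is exposed to the diabetes of the body and carries no targeted change of its vessels. There were 30 control and 28 diabetic libraries, with 4 to 6 per genotype and time point, with time given as zeitgeber time (ZT), in hours from the onset of light. Mice were perfused with saline before the retinas were taken, and each library held the ribosome-depleted total RNA of retina.

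In the inner blood-retina barrier, endothelial cells joined by tight junctions line the retinal capillaries, and pericytes wrap them from outside. The endothelial cells let little pass between or through them, and carriers and efflux pumps decide which molecules cross. Tight junction loss, pericyte loss and vascular leakage are well known features of diabetic retinopathy. Retinal endothelium lacks fenestrations, the small diaphragm-covered pores that Plvap builds in leakier vessels.

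Counted reads per library ranged from 7773117 to 22147398, with a median of 15406440.5. The retina was recognised by its rods, whose 5 marker genes summed to a median of 44337 TPM (a level scaled to transcript length and to the library's total) in control and 42632 TPM in diabetic libraries. Vascular transcripts were a small part of it, as the 7 endothelial genes summed to a median of 83.2 TPM in control and 81.0 TPM in diabetic libraries, and the 2 pericyte genes to 97.1 and 93.2 TPM. Other tissue came with some retinas, since 7 pigment epithelium markers summed to between 79.5 and 781 TPM in control and between 70.5 and 960.5 TPM in diabetic libraries, and 1 control library had 6546 TPM of lens markers. Ocln and Mfsd2a are also known from pigment epithelium, and their deviations from the group means had a Spearman correlation with its markers of -0.03 and -0.06 over the 58 libraries. The 5 blood markers summed to a median of 2.67 TPM in control and 2.53 TPM in diabetic libraries, and 3 globin genes among them had a median of 0. In the same order of genotypes, the median sums were 4434 and 4483 TPM for Muller glia and 59.0 and 57.2 TPM for microglia. Fibroblast markers had 9.15 and 10.9 TPM, and those of cornea or ciliary epithelium 2.17 and 3.26 TPM. The 4 perivascular macrophage markers had 18.4 and 16.4 TPM, mostly from Lyve1, whose median over all libraries was 16.6 TPM. Mrc1, Cd163 and Pf4 had medians of 0.457, 0.109 and 0.364 TPM. The 5 markers of melanocytes or choroid had median sums of 19.5 and 19.9 TPM. Their sums ranged from 5.70 to 122 TPM in control and from 4.55 to 127 TPM in diabetic libraries. In whole retinas, fewer vascular cells and less RNA per vascular cell cannot be told apart.

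Scaled by length, Rgs5 had the highest level of the 9 genes. Rgs5, a regulator of G protein signalling in pericytes, had a median of 72.5 TPM and a range of 46.8 to 89.2 TPM over the 58 libraries. Cldn5, the main claudin of endothelial tight junctions, followed with a median level of 30.02 TPM and a range of 13.0 to 42.7 TPM. Pdgfrb, the receptor through which endothelial PDGF-B recruits pericytes, had a median level of 24.2 TPM. Plvap, the fenestral diaphragm protein, had a median level of 12.8 TPM, and Abcb1a, the P-glycoprotein efflux pump, one of 10.7 TPM. The source of the Plvap RNA was not tested, and this gene overlaps Gtpbp3 on the opposite strand. Pecam1, an adhesion molecule at endothelial contacts, had a median level of 9.97 TPM, and Cdh5, the cadherin of endothelial adherens junctions, one of 7.64 TPM. Ocln, the tight junction protein occludin, had a median level of 6.28 TPM. Mfsd2a, a lipid carrier known to hold down transcytosis in barrier endothelium, was lowest with a median level of 5.54 TPM. Rgs5 and Cldn5 were the one pair of neighbours in this order whose ranges did not overlap, and with the longest transcript as the length Pecam1 moved from the 6th to the 4th place.

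Cldn5 was the one barrier gene of the 9 that passed every rhythm test run in both genotypes. Its level fell in the second part of the light phase and came back in the dark. The following values are counts normalized by DESeq2 size factors. In control retinas Cldn5 stood at 119.8, 126, 133, 140.2 and 141 at ZT1, and at 109 to 140.0 with a median of 119 in the 6 libraries of ZT5. At ZT9 the control libraries gave 62.4, 70.4, 78.4, 85.6 and 90.5, and at ZT13 they gave 71.4, 76.7, 90.5, 95.9 and 97.2. At ZT17 the control values were 116, 122, 124, 134 and 136, and at ZT21 they were 119.9, 126, 136 and 146. Thus all 10 control libraries of ZT9 and ZT13 lay below all 20 of the other time points.

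In diabetic retinas Cldn5 was highest at ZT1, with 114.9, 132, 143, 147 and 154, followed by 90.6, 102, 106, 113 and 128 at ZT5. The lowest values were those of ZT9, with 48.1, 60.9, 63.0, 69.9 and 79.96, and ZT13 gave 71.4, 84.1, 91.5 and 99.7. The libraries of ZT9 lay below all those of ZT1 and ZT5, with no overlap. At ZT17 the diabetic libraries spread over 73.4, 83.8, 118 and 162, a coefficient of variation of 36.6%, where the control libraries of that time varied by 6.69%. At ZT21 the diabetic values were 86.3, 115.1, 115.3, 139 and 140.0.

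**Figure D1:**
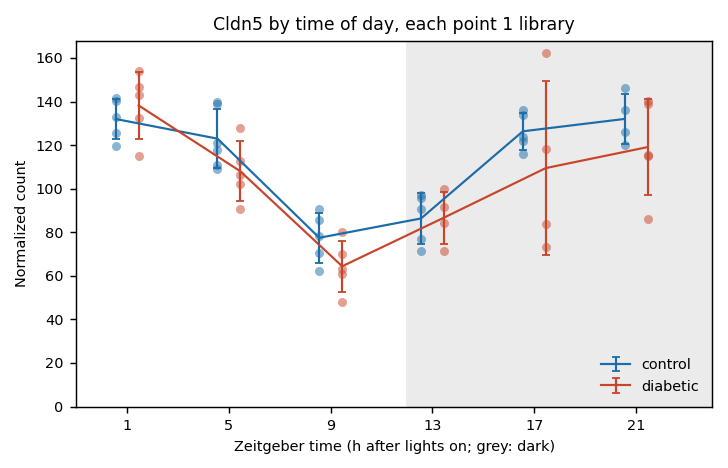
Normalized counts of Cldn5 (y axis) against zeitgeber time in hours (x axis, dark phase in grey), with a point for each library and the mean and SD of each group. Control means ran from 77.4 at ZT9 to 132 at ZT1 and ZT21, and diabetic means from 64.4 at ZT9 to 138 at ZT1.

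The ratio between the highest and the lowest time-point mean of Cldn5 was 1.70 in control and 2.15 in diabetic retinas. The rhythm test used an empirical JTK_CYCLE, which ranks each series against 24 h waves, and a rhythm was called where the unadjusted p was under 0.05 and the highest library exceeded the lowest by more than 25%. Among the 19120 expressed genes, this called 21.8% in control and 23.9% in diabetic retinas, while 2 of the 9 barrier genes were called in control (Cldn5, Pdgfrb) and 3 of 9 in diabetic retinas (Cldn5, Pecam1, Abcb1a). These shares of a list so short were near those of all genes. The fold rule was taken between single libraries. Genes not called met it too, such as Rgs5 with 602 to 1047 normalized counts in control libraries. For Cldn5 the permutation-based rhythm test gave a p, adjusted over all expressed genes, of 0.000588 in control retinas and of 0.00171 in diabetic ones. A least-squares cosine gave Cldn5 a relative amplitude of 26.0% ± 3.28 (SE, n = 30) of its mean and an acrophase, the time of the peak, of ZT22.7 ± 0.46 in control retinas. In diabetic retinas the relative amplitude was 30.1% ± 5.54 (SE, n = 28) and the acrophase ZT23.0 ± 0.72. The edgeR test of differences among the 6 time points, which called 9.25% of 18814 genes in control and 10.2% in diabetic retinas, called 1 of the 9 barrier genes, Cldn5, with an adjusted p of 5.78e-05 in control and 3.32e-06 in diabetic retinas.

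The sum of the other 6 endothelial genes moved less over the day than Cldn5. In control retinas its means were 558, 595, 560.2, 557, 637 and 581 normalized counts from ZT1 to ZT21, with SDs of 23.8 to 65.7. In diabetic retinas they were 546, 551, 539.6, 597, 607 and 603, with SDs of 26.4 to 47.8. The sum was thus low at ZT9 and high at ZT17 in both genotypes, as far as its spread allows, but unlike Cldn5 it was also low at ZT1. Set against that sum, Cldn5 amounted to 23.8% ± 2.93 at ZT1 and 13.8% ± 1.79 at ZT9 in control retinas, and to 25.3% ± 1.11 and 11.9% ± 2.13 in diabetic retinas. This ratio was chosen after the values of Cldn5 were seen and was not tested.

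The Cldn5 promoter is printed because Cldn5 carried the rhythm. The gene lies on the plus strand at chr16:18776847-18778262 (GRCm38, Gencode M21) and has 1 annotated transcript. Below are the 250 bases before the RefSeq start and the 50 from it on (chr16:18776597-18776896, GRCm38.p6, plus strand, 5′ to 3′), with motif matches in capitals.
Cldn5: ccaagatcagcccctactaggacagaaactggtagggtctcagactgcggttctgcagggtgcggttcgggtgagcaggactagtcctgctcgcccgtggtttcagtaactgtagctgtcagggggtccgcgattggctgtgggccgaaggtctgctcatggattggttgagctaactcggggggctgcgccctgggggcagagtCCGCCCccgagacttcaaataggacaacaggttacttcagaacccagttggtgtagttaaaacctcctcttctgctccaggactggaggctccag

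Both strands were searched for 6 motifs. The capitals mark a GC box (GGGCGG, here on the minus strand) that covers bases -45 to -40 from the start, and 35.7% of the 32851 promoter windows of the table held one. The E-box bound by clock factors (CACGTG, in 7.15% of windows), the D-box (TTATGNAA, 3.38%), the ROR element (TAGGTCA, 2.61%), the TATA box (TATAAA, 13.6%) and the ETS core known from endothelial promoters (CCGGAA, 14.9%) had no match in these 300 bases. Windows were found for 5 of the 9 genes. Each of 2 Ocln windows held 1 GC box, 1 of them also held 1 ETS core, and the windows of Mfsd2a and Rgs5 held no match to any of the 6. The Abcb1a window, also without a match, surrounds a RefSeq start 93 kb before the Gencode start of the gene, so it does not cover the latter.

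Among the other 8 barrier genes, no rhythm was called in both genotypes. Pdgfrb was called in control retinas with an unadjusted p of 0.0292 in the permutation-based test, an adjusted p of 0.162 and a relative amplitude of 7.96% ± 2.74 (SE, n = 30). Its control means ran from 325 ± 49.2 (SD, n = 5) at ZT9 to 399 ± 48.2 (n = 5) at ZT17, and the libraries of these times overlapped, from 258 to 395 and from 343 to 472. After each library was corrected for its trends with GC content and length, Pdgfrb was no longer called, with an unadjusted p of 0.0729 in the permutation-based test. The edgeR cosine test, which called 12.5% of genes in control retinas, gave Pdgfrb an adjusted p of 0.0727, and one of 0.0386 with a block for replicate number.

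Abcb1a was called in diabetic retinas, with an adjusted p of 0.0330 in the permutation-based test, a relative amplitude of 9.22% ± 2.57 (SE, n = 28) and an acrophase of ZT17.2 ± 1.05. Its diabetic libraries gave 117, 126, 140.1, 148 and 149 at ZT5 and 117, 123, 131, 151 and 173 at ZT9, against 153, 159, 162 and 172 at ZT13 and 152, 158, 159.8 and 180.4 at ZT17. The libraries of ZT5 thus lay below all of those at ZT13 and ZT17. Between time-point means the fold was 1.196, and with the fold threshold set on these means Abcb1a was no longer called. The edgeR cosine test, which called 14.5% of genes in diabetic retinas, gave Abcb1a an adjusted p of 0.0615, and one of 0.0427 with a block for replicate number. In control retinas its relative amplitude was 2.22% ± 3.02 (SE, n = 30), and the difference between the genotypes in its profile did not pass (unadjusted p = 0.222, edgeR, 2 cosine terms by genotype).

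Pecam1 was called in diabetic retinas with an unadjusted p of 0.0345 in the permutation-based test and an adjusted p of 0.165. Its diabetic mean was 150.1 ± 8.74 (SD, n = 5) at ZT1 and 186 ± 13.8 (n = 5) at ZT21, and the libraries of these times, from 137 to 158 and from 174 to 207, did not overlap. Leaving out 1 of 5 single diabetic libraries (replicate 4 of ZT13, replicate 5 of ZT17, or replicate 2, 3 or 4 of ZT21) ended this call. Likewise the call of Pdgfrb ended without any 1 of 5 control libraries (replicate 2, 3 or 5 of ZT9, or replicate 1 or 3 of ZT17), while Mfsd2a gained a call in diabetic retinas without any 1 of 4 (replicate 1 of ZT1, replicate 3 or 5 of ZT5, or replicate 4 of ZT21). The call of Pecam1 also ended without all libraries of ZT1, ZT13 or ZT21, and that of Pdgfrb without those of ZT5, ZT9, ZT13 or ZT17, while Mfsd2a gained one in diabetic retinas without those of ZT5.

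**Figure D2:**
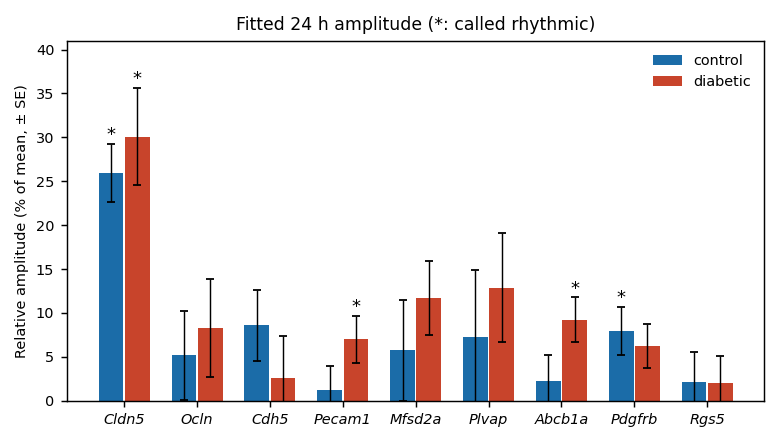
Relative amplitude of the fitted 24 h cosine in percent of the mean (y axis, bars from 0, error bars SE) for each barrier gene in control and diabetic retinas, with an asterisk where the rhythm was called. Cldn5 stood at 26.0% and 30.1%, and the other 8 genes lay between 1.18% and 12.9%.

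Plvap and Mfsd2a had the next largest amplitudes in diabetic retinas and were called in neither genotype. The relative amplitude of Plvap was 7.22% ± 7.64 (SE, n = 30) in control and 12.9% ± 6.24 (n = 28) in diabetic retinas, and that of Mfsd2a 5.73% ± 5.77 and 11.7% ± 4.20. Mfsd2a was the most thinly counted of the 9, with 16 to 54 raw reads per library, so that counting alone gave an error of 16.9% at the median. The tight junction gene Ocln had relative amplitudes of 5.19% ± 5.05 and 8.28% ± 5.62. The adherens junction gene Cdh5 had 8.59% ± 4.07 and 2.58% ± 4.76. Rgs5 had 2.17% ± 3.38 and 2.02% ± 3.03 with 443 to 1429 raw reads per library, so the most deeply counted of the 9 genes also had the smallest fitted amplitude in diabetic retinas.

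**Figure D3:**
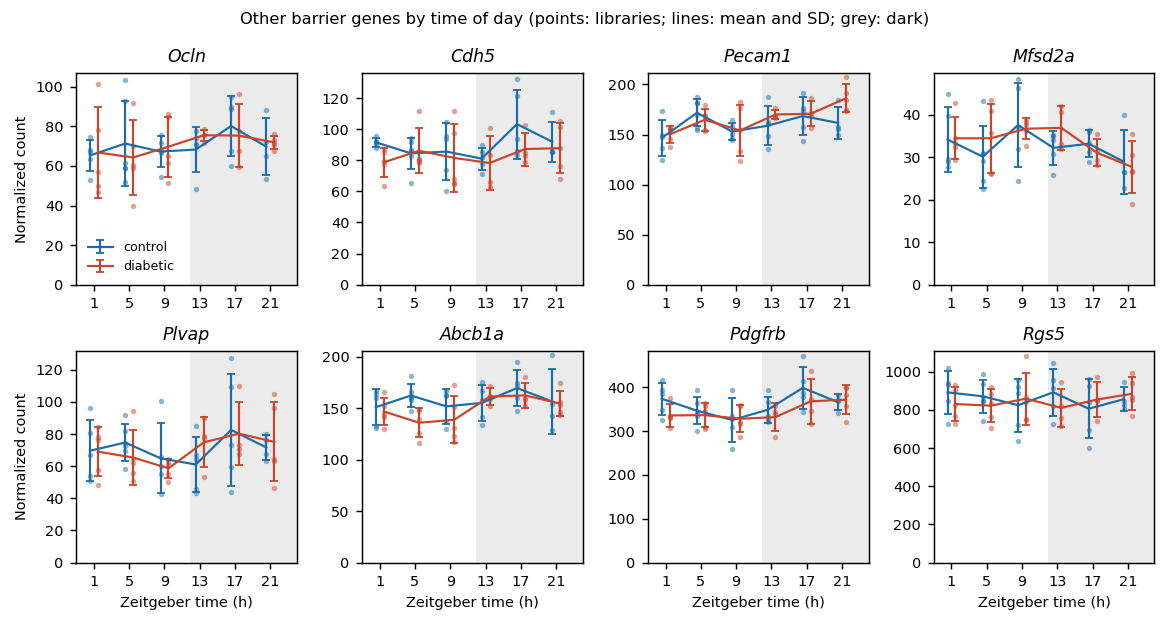
Normalized counts (y axes) of the 8 barrier genes other than Cldn5 against zeitgeber time in hours (x axes, dark phase in grey), with a point for each library and the mean and SD of each group. Group means of Rgs5 lay between 806 and 892, those of Pdgfrb between 325 and 399, and those of Plvap between 58.7 and 82.6.

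No difference between diabetic and control retinas passed the test for any of the 9 barrier genes. Over all time points, edgeR's quasi-likelihood test called 586 of 18814 genes (3.11%) at an adjusted p under 0.05, and 0 of the 9. None of the 9 had an unadjusted p under 0.05 in that test, which has no term for time, while 2924 of 18814 genes (15.5%) had one. DESeq2 also called 0 of 9. The values below are log2 differences, diabetic over control.

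Cldn5 ran from 62.4 to 146 normalized counts with a median of 119.8 in control libraries, and from 48.1 to 162 with a median of 104 in diabetic ones. Its log2 difference was -0.10 (SE 0.10, adjusted p = 0.704), with a 95% interval from a level 18.3% lower to one 6.46% higher. The daily swing of Cldn5 counts as spread in this fit. With the time points as a term, Cldn5 had a log2 difference of -0.12 (SE 0.06, unadjusted p = 0.0449, adjusted p = 0.259, edgeR) and an interval from 15.1% to 0.368% lower, and it was again not called. With that term Abcb1a had -0.09 (SE 0.04, unadjusted p = 0.0533, adjusted p = 0.284, edgeR) and a normal interval from 11.1% to 0.0364% lower. With the GC and length correction in place of the term, Abcb1a had -0.09 (SE 0.04, unadjusted p = 0.0353, adjusted p = 0.220, edgeR). Without term or correction, Abcb1a had the smallest p, with a log2 difference of -0.08 (SE 0.04, unadjusted p = 0.0632, adjusted p = 0.355). Its median was 160.2 normalized counts in control and 152 in diabetic libraries. Cdh5 had -0.10 (SE 0.06, adjusted p = 0.467), and Pdgfrb -0.06 (SE 0.04, adjusted p = 0.584). Pecam1 had 0.05 (SE 0.04), Mfsd2a 0.03 (SE 0.08), Rgs5 -0.02 (SE 0.05), Plvap -0.01 (SE 0.10) and Ocln less than 0.01 in size (SE 0.08), all with an adjusted p of 0.632 or above. The median of the 9 was -0.02, beside 0.00 over all 18814 genes, whose quartiles were -0.05 and 0.06.

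In the same fit without time, the 95% interval for Rgs5 ran from 7.31% lower to 4.802% higher in diabetic retinas, and for Pdgfrb from 9.04% lower to 1.84% higher. For Plvap it ran from 12.8% lower to 12.9% higher, and for Ocln from 10.1% lower to 10.5% higher. For the lipid carrier Mfsd2a it ran from 7.85% lower to 13.3% higher.

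**Figure D4:**
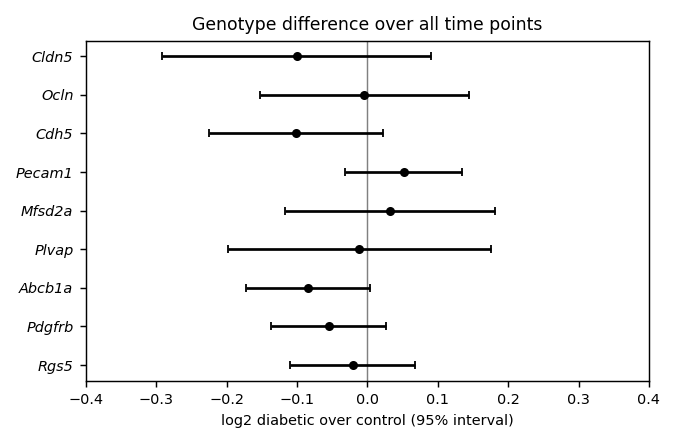
Log2 difference of diabetic over control retinas (x axis) for each of the 9 barrier genes over all time points, with 95% intervals. The fit has no term for time, and all 9 intervals include 0, from that of Cldn5 between -0.29 and 0.09 to that of Mfsd2a between -0.12 and 0.18.

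At single time points the counts of called genes among 18814 were 2 (0.0106%) at ZT1, 4 (0.0213%) at ZT5, 1 (0.00532%) at ZT9, 33 (0.175%) at ZT17, and 0 at ZT13 and ZT21, where 843 and 878 genes had an unadjusted p under 0.05 in edgeR and DESeq2 called 1 and 8 genes. None of the 9 barrier genes was among them. Among the 54 values of the 9 genes at the 6 time points, 2 had an unadjusted p under 0.05. Of all genes, between 4.44% (ZT9) and 8.94% (ZT17) had one at a time point, with 6.1% at ZT5 and 4.67% at ZT21. Abcb1a at ZT5 was 148 to 181 in the 6 control libraries, with a median of 161, and 117 to 149 in the 5 diabetic ones, a log2 difference of -0.26 (SE 0.10, unadjusted p = 0.0121, adjusted p = 0.660). These groups overlapped in 1 control library. Pecam1 at ZT21 stood at 149, 155, 158 and 184 in control and at 174, 174, 185, 192 and 207 in diabetic libraries, a log2 difference of 0.20 (SE 0.10, unadjusted p = 0.0384 and adjusted p of 1.00 in edgeR). No difference in daily profile between the genotypes passed for any of the 9 genes (0 of 18814 genes called by edgeR and 0 by DESeq2, with 654 at an unadjusted p under 0.05 in edgeR), and for Cldn5 the unadjusted p of that edgeR test was 0.840.

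The barrier genes varied together only weakly from library to library. Over the 36 pairs, the Spearman correlation of log2 CPM, the log2 level scaled to the library's total count, with the mean of each of the 12 groups taken away, had a median of 0.15 over 58 libraries, with 25 pairs above 0. Against the 11307 or 11308 genes with at least 100 reads on average the median was 0.0063 for Cldn5, 0.11 for Plvap, 0.09 for Pdgfrb and -0.05 for Rgs5. The highest value was 0.60 between Plvap and Pdgfrb and the lowest -0.51 between Plvap and Rgs5, 1 endothelial gene set against the 2 pericyte genes. Pdgfrb and Rgs5, both pericyte genes, had -0.26. These correlations share library and depth, and they also share each library's trend with GC content.

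That trend was strong for some of the 9. The slope of log2 counts on transcript GC content, taken over 11106 genes in each library, correlated with the deviations of Plvap at 0.86, of Pdgfrb at 0.62, of Cdh5 at 0.60 and of Rgs5 at -0.55. Transcripts of Plvap and Rgs5 stand near the opposite ends of GC content, with 60.6% and 41.1% beside a median of 49.3% over these 11106 genes. Cldn5 is as GC-rich as Plvap, at 60.5%, and its deviations had a correlation of 0.07 with the slope. Group means of the slope were highest at ZT17, at 0.14 ± 0.24 (SD) log2 per 10% GC in control and 0.09 ± 0.20 in diabetic libraries. Control ZT17 replicates 1 and 3 had 0.35 and 0.45, and diabetic ZT17 replicate 3 had 0.39. Leaving out either of these control libraries ended the call of Pdgfrb. Apart from the correction, the part of the slope in the daily profiles was not tested. After the correction for GC content and length, Plvap and Pdgfrb had 0.20, Plvap and Rgs5 0.03, and Pdgfrb and Rgs5 0.31, while the median over the 36 pairs was 0.15 and 30 pairs lay above 0. The correction did not remove the trend from each gene. Deviations of Plvap still correlated with the slope at 0.68 and those of Cdh5 at 0.45, and those of Cldn5 went to -0.46, so the corrected values are not free of GC content.

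**Figure D5:**
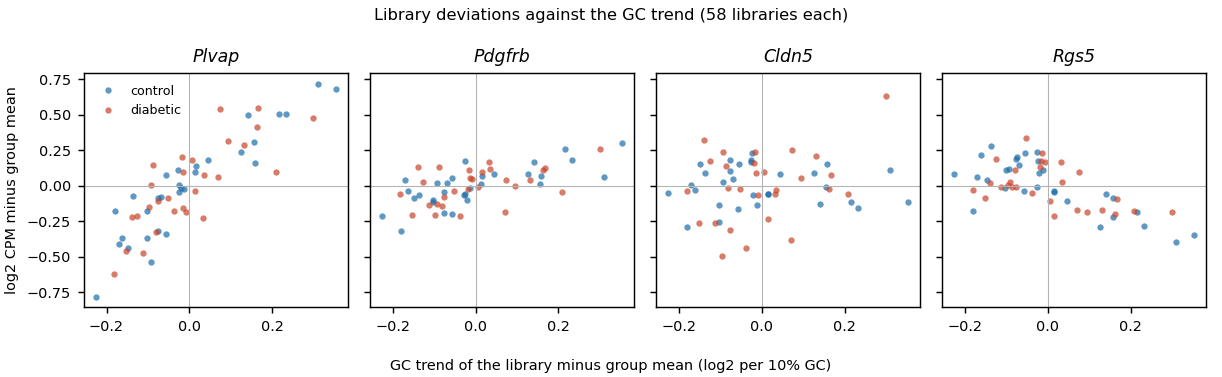
Deviation of log2 CPM from the group mean (y axis) against the library's slope on GC content, also as its deviation from the group mean (x axis, log2 per 10% GC), for 4 barrier genes over 58 libraries. Plvap climbs with the slope (0.86), Pdgfrb less so (0.62), Rgs5 declines (-0.55), and Cldn5 shows no such course (0.07).

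The genes most like a barrier gene over the 58 libraries were taken from the same well-counted genes. For Cldn5 they were Endov, Trappc6a, Tab1, Nudt18 and Mrps16, with correlations of 0.44 to 0.48, and no gene came above 0.5. For Plvap they were Fastk, Scand1, Npdc1, Spint2 and Sirt6, with 0.84 for each, and 2779 genes came above 0.5. For Pdgfrb they were Zdhhc12, Slit1, B4galnt4, Fam214b and Adgra2 (0.67 to 0.71), and for Rgs5 they were Serinc1, Tomm70a, Api5, Gpm6b and Sh3bgrl (0.84 to 0.86). None of these 20 genes was another of the 9. All 5 genes near Rgs5 had a GC content of 36.6% to 43.3%, and 4 of the 5 near Plvap had 56.6% to 68.4%.

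Deviations of some barrier genes also went with markers of other cells. Cldn5 had a correlation of 0.53 with 3 astrocyte markers, whose sum lay between 16.3 and 36.1 TPM in control and between 23.0 and 64.7 TPM in diabetic libraries. Cdh5 had 0.69, Plvap 0.64 and Pdgfrb 0.50 with 5 rod markers, and Rgs5 had -0.35. These genes also followed the library's GC slope with the same signs (0.60, 0.86, 0.62 and -0.55), and rods and slope were not separated. Abcb1a had 0.46 and Mfsd2a 0.36 with Muller glia, Plvap 0.41 with microglia, and Rgs5 0.41 with perivascular macrophage markers. With the 5 markers of melanocytes or choroid, values ran from 0.005 for Cdh5 to 0.31 for Pecam1, with 0.30 for Plvap and 0.27 for Cldn5. Pecam1 also had 0.32 with blood markers. The part of these cells in the results above was not tested.

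The 6 wider lists held 75 further genes known from barrier vessels or from signals to them. Of these, 71 were tested between genotypes over all time points. The 14 barrier transport genes summed to a median of 2986 TPM in control libraries, beside 83.2 TPM for the 7 endothelial genes. Other retinal cells may share the listed genes, and the cells that made this RNA were not tested. By edgeR 4 of the 71 changed (5.63%, beside 3.11% of all genes). The mural cell list also held Pdgfb, which is made by endothelium. Of 16 genes tested in this list, 1 rose and 2 fell, with a median log2 difference of -0.00. Mcam, an adhesion molecule of vessels, rose by 0.25 (SE 0.07, adjusted p = 0.0254), from 67.3 ± 12.4 (SD, n = 30) normalized counts in control to 80.1 ± 13.96 (n = 28) in diabetic retinas. The call of Mcam ended without the libraries of ZT5, ZT17 or ZT21, with an adjusted p of 0.0793, 0.186 and 0.219 in edgeR. Acta2, the smooth muscle actin of arterioles, fell by 0.37 on the log2 scale (SE 0.11, adjusted p = 0.0429), from 58.8 ± 23.6 to 45.6 ± 9.48. The call of Acta2 held without 38 of the 58 single libraries, with adjusted p in edgeR up to 0.0800, and in 6 of 13 other alternatives. It was lost with a block for replicate number (adjusted p = 0.0862), with no filter on low counts (0.0707), and without the libraries of ZT1, ZT5, ZT9, ZT17 or ZT21 (0.0624 to 0.216 in edgeR). Vtn, vitronectin, fell by 0.18 on the log2 scale (SE 0.04, adjusted p = 0.00469), from 8346 ± 786 to 7387 ± 832, at a median level of 1490 TPM. Vtn is also known from photoreceptors, and the source of its RNA in these libraries was not tested. The libraries of the genotypes overlapped for each of the 3.

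Norrin, made by Muller glia, acts on the receptor Fzd4 with Lrp5 and Tspan12 to induce and keep the retinal barrier. Of 8 genes listed for norrin and Wnt signals to the barrier, Adgra2 and Reck among them, 1 rose, with a list median of 0.03. Fzd4 had 463 ± 40.0 (SD, n = 30) normalized counts in control and 518 ± 83.7 (n = 28) in diabetic retinas, a log2 difference of 0.16 (SE 0.05, adjusted p = 0.0380, edgeR). The call of Fzd4 held without 42 of the 58 single libraries, with adjusted p in edgeR up to 0.0670, and in 7 of 13 other alternatives. It was lost with a block for replicate number (adjusted p = 0.0724), with no filter on low counts (0.0721), and without the libraries of ZT9, ZT13, ZT17 or ZT21 (0.0792 to 0.178 in edgeR).

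No gene of the other 4 lists passed between genotypes. Among 12 junction genes the median log2 difference was 0.04, and the smallest p was that of F11r, the junctional adhesion molecule A, with 0.19 (SE 0.06, adjusted p = 0.0541). Among 18 endothelial identity genes the median was -0.05, with 13 below 0, and Tie1, an endothelial receptor kinase, had -0.20 (SE 0.06, adjusted p = 0.0762). Among 13 barrier transport genes tested the median was 0.02, with the smallest p for Bsg, a chaperone of lactate carriers (-0.07, SE 0.03, adjusted p = 0.289). Among 4 genes of fenestrated or sprouting endothelium tested the median was -0.15, with the smallest p for Apln, the ligand apelin of sprouting vessels (-0.20, SE 0.13, adjusted p = 0.463).

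Rhythm was also tested in these lists, whose RNA was not traced to vessels. In control retinas 26 of the 72 tested genes were called (36.1%, beside 21.8% of all genes), and in diabetic retinas 32 of 72 (44.4%, beside 23.9%). At an adjusted p under 0.05, 13 of 72 (18.1%) passed in control and 8 of 72 (11.1%) in diabetic retinas, where 8.43% and 9.89% of all genes passed. Of the 9 barrier genes, 1 (Cldn5) and 2 (Cldn5, Abcb1a) passed that threshold, and no test compared the lists with the 9 genes. Slc2a1, the glucose carrier of barrier endothelium that many retinal cells also use, had a relative amplitude of 21.0% ± 2.75 (SE, n = 30) with an acrophase of ZT18.3 ± 0.51 in control and 16.1% ± 3.07 (n = 28) with ZT16.1 ± 0.71 in diabetic retinas. Abcc4, an efflux pump, had 20.8% ± 3.86 at ZT17.1 ± 0.74 and 23.5% ± 3.53 at ZT15.6 ± 0.55. Flt1, a VEGF receptor, had 7.76% ± 1.57 at ZT15.6 ± 0.82 and 8.95% ± 1.73 at ZT17.2 ± 0.73, Ly6c1 had 19.4% ± 4.45 at ZT14.5 ± 0.91 and 21.0% ± 5.16 at ZT15.1 ± 0.90, and Lrp5 had 14.2% ± 3.59 at ZT20.0 ± 0.93 and 12.8% ± 2.96 at ZT20.6 ± 0.92. These 5 passed at an adjusted p under 0.05 in both genotypes by the permutation-based test. Their acrophases lay before that of Cldn5 in each genotype, at ZT14.5 to ZT20.6 beside ZT22.7 and ZT23.0, and the differences in phase between genes were not tested.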

How the data were processed

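RNA of mouse retina was sequenced in 58 libraries. The authors prepared ribosome-depleted libraries, aligned the reads with STAR (2.7.4a) to GRCm38.p5 and counted them per gene with HTSeq (0.11.1), as the methods and the submitters' processing notes state. The deposited values are raw counts per symbol, neither normalized nor filtered, and columns were matched to samples through the sample titles. The strand setting of the counting is not given in the sources used here, so reads of Plvap and Gtpbp3, of Cdh5 and Gm29682, and of Abcb1a and Gm42686, which overlap on opposite strands, may not be told apart. Abcb1a also overlaps Gm42684 on its own strand. Nothing in the labels says which libraries share an animal, so p-values measure the spread between libraries.

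Genotypes were compared with edgeR's (4.0.16) quasi-likelihood test, TMM factors and its filter on low counts, in R 4.3.3, with Benjamini-Hochberg adjustment over all 18814 genes tested. Intervals are normal 95% intervals. Rhythm was tested with an empirical JTK_CYCLE re-implemented in Python 3.11.15 (24 h, 6 phases, 5 widths, 1000000 shuffled series) on counts divided by DESeq2 (1.42.0) size factors, for genes with a median above 4. Its threshold, an unadjusted p under 0.05, is the study's. The study took its fold above 1.25 from the prediction of its program, and here the fold was between single libraries. TPM used exon-union lengths and a total over 21526 protein-coding genes. The profile difference was tested as genotype by cosine terms in edgeR, in place of the study's package. The tests were checked on simulated data.

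The 9 genes, the lists and the tests were chosen with earlier results of these data known. All 9 genes are named, of each list those that passed between genotypes or else at most 3 with the smallest p, and of the genes most like Cldn5, Plvap, Pdgfrb and Rgs5 the 5 highest. Rhythm values were printed for those list genes that passed after adjustment in both genotypes, a choice made after their values were seen. Alternatives were other normalizations, filters and tests, libraries or time points left out, a replicate block and a correction for GC content and length trends. The marker lists were those of rods, pigment epithelium, melanocytes or choroid, blood, lens, cornea or ciliary epithelium, fibroblasts, microglia, perivascular macrophages, Muller glia and astrocytes. Sequences are those of RefSeq.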

Additional observations from a re-analysis of the deposited data

Results flagged for a closer look

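In 4 of the 108 groups of a barrier gene, genotype and time point, 1 library stood apart from the others by Dixon's ratio at the 95% level, and chance gives about 1 in 20 groups. Cdh5 was 111 normalized counts in control ZT21 replicate 4, where the other 3 libraries lay between 85.1 and 85.8. Cdh5 was 112 in diabetic ZT5 replicate 4, with the others between 78.1 and 80.6. Ocln was 48.5 in control ZT13 replicate 5, with the others between 70.5 and 77.5. Plvap was 109.7 in diabetic ZT17 replicate 3, with the others between 67.6 and 73.2.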

How the results depend on the processing

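The count of 0 barrier genes changed between genotypes held over all time points, at single time points and for the daily profile in all alternatives run, with 0 to 0 when each library was left out. In these tests a block for the replicate number also gave 0. Same-numbered control and diabetic libraries of a time point had a median correlation of 0.30 in their deviations, against -0.10 for the 114 other pairs, and 16 of 26 correlated best with their own number, a hint of shared replicate sets. The numbers were not taken as pairing the libraries, because the labels do not say so and 5 of 26 pairs were not above 0.1. With the replicate block in the edgeR cosine test, 2 genes were called in each genotype, Cldn5 with Pdgfrb in control (adjusted p = 0.0386) and with Abcb1a in diabetic retinas (0.0427).

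Of the 2 genes rhythmic in control retinas, 1 (Cldn5) stayed with the GC and length correction (chosen after seeing the data), an adjusted p, a fold between time-point means, the edgeR cosine test, the edgeR test over 6 time points, and without ZT5, ZT9, ZT13 or ZT17, and the count ran from 1 to 2 when single libraries were left out. Of the 3 in diabetic retinas, 1 (Cldn5) stayed with a fold between time-point means, where Abcb1a and Pecam1 were lost, and with either edgeR test, and the count ran from 2 to 4 over single libraries. The call of Cldn5 held in all of these.

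Small log2 differences between genotypes changed sign without single time points: Ocln became 0.0287 without ZT5 and 0.0136 without ZT17, Mfsd2a -0.0122 without ZT5, and Plvap 0.0259 without ZT5 and 0.0125 without ZT9. Over single libraries Ocln ran from -0.0306 to 0.0190 and Plvap from -0.0432 to 0.0315. With TPM over all genes, the median levels were lower in the same order of genes, from 47.7 TPM for Rgs5 to 3.43 TPM for Mfsd2a. Over protein-coding genes these were 72.5 and 5.54 TPM. In the TPM over all genes, 0 neighbours in the order of levels had ranges that did not overlap, against 1. The median correlation of pairs ran from 0.11 to 0.17 over single libraries. The 586 genes called over all time points became 387 with no filter, 901 with time points as a term, 953 with the GC and length correction, and 336, 278, 252 and 233 without ZT1, ZT5, ZT17 and ZT21. Counting error was largest for Mfsd2a, with 16 to 54 reads per library.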
